A study of Rattus norvegicus with 12 samples.

Results

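The apolipoproteins described here are the protein parts of plasma lipoproteins that a rat liver array measures under the names Apoa1, Apoa2, Apoa4, Apoa5, Apob, Apoc1, Apoc3, Apoe, Apoh and Apom. They were taken by gene name, from the probes that are not controls on all 12 arrays. The list of names was chosen with earlier results of these data known. This gave 10 genes with 15 probes, out of 15445 distinct gene symbols named on the array: 5 probes for Apob, 2 for Apoc3 and 1 for each of the other 8 genes. A gene is represented below by its brightest probe.

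Apolipoproteins wrap fat and cholesterol into particles that blood can carry, and most of them are made in the liver. Apob is the scaffold of very low density and low density lipoproteins, while Apoa1 and Apoa2 are the main proteins of high density lipoprotein. Apoc1, Apoc3 and Apoe ride on particles rich in triglyceride and steer their breakdown and their uptake by receptors, and Apoa5 is a scarce plasma protein that promotes the clearance of triglyceride. Growth hormone (GH) comes from the pituitary, and male rats release it in pulses while females release it almost continuously.

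The RNA came from livers of Fischer 344 rats aged 12 weeks. Intact males and intact females were untreated, and hypophysectomised males and females had lost the pituitary, so that these groups lack its other hormones as well as GH. Each of these 4 RNAs was a pool of 3 to 4 livers. One further RNA came from hypophysectomised males given GH once, as 1 pool of 4 livers collected 30, 60 or 90 min after the injection. The other GH RNA came from males of the same kind given GH 2 times, the injections 3 or 4 h apart, as 1 pool of 5 livers. The first GH pool thus joins 3 collection times. Every array held 2 of these RNAs in 2 colours, Alexa 647 (red) and Alexa 555 (green). There were 6 direct comparisons with 2 arrays each, the dyes swapped between the arrays. Both arrays of a GH comparison held the same GH pool, so their spread around it is technical, while the labels do not tie the pools of the other RNAs to single arrays. P-values therefore measure the spread between arrays and pools, part of which is technical.

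All 15 probes were well above background in both colours on all 12 arrays, and none of their spots was saturated. All 7 hepatocyte markers checked, albumin (Alb) and transthyretin (Ttr) among them, were also well above background throughout. Each value is a log2 ratio, written with the numerator first, and its SE comes from 1 limma fit to all 12 arrays (2 arrays per comparison). A log2 ratio of 1 is a 2-fold difference. A gene was called higher or lower at an adjusted p under 0.05. The value of a single array is given after the fitted effect of the dye was taken off. Intensities, where given, are log2 values that can be set side by side only within a probe.

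Apoa1, Apoc3, Apoa4 and Apoa5 follow each other in this order on rat chromosome 8, as Apoc1 and Apoe do on chromosome 1, in the RefSeq annotation of GRCr8. The RefSeq promoter table of that build held 6 of the 10 genes. Shown are the 250 bases before the start of Apoa4 (chr8:55435529-55435778, + strand) and of Apoa5 (chr8:55457621-55457870, + strand), because both genes were lower after hypophysectomy and Apoa5 rose with GH. Capitals mark matches to any of 3 motifs, each sought on both strands, and no match overlaps another.
Apoa4: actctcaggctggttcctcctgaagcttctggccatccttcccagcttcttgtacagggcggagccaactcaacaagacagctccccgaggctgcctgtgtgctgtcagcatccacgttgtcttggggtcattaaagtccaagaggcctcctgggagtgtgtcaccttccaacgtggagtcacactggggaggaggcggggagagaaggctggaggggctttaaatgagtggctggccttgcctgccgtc
Apoa5: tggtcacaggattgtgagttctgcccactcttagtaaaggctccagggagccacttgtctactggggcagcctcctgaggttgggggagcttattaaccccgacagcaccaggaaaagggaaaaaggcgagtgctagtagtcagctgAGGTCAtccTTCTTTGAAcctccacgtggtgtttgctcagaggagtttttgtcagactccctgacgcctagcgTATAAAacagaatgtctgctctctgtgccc
The Apoa5 stretch holds all 3 motifs: the nuclear receptor core motif AGGTCA from 103 bases before the start, the STAT5-type palindrome TTCNNNGAA as TTCTTTGAA from 94 bases before it, and the TATA box letters TATAAA from 30 bases before it. The Apoa4 stretch holds none of these letters. Over the 33469 promoters of the table, the same 250 bases held AGGTCA in 14.1%, TTCNNNGAA in 7.67% and TATAAA in 12.9%. Of the 6 apolipoprotein promoters, 1 held AGGTCA, 1 held TATAAA and 2 held TTCNNNGAA, the second being Apoh with TTCCAAGAA from 218 bases before the start. A match of letters is a description and not a known site.

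The comparison of hypophysectomised with intact males asks which liver transcripts depend on the pituitary in males. Apoa4, Apoa1 and Apoa5 were lower without the pituitary, Apoa4 by 8.26-fold and Apoa1 by 6.69-fold, and Apoa2 was higher by a small margin. Of the 10 genes 3 were called lower and 1 higher, and 6 were not called. Among all 25984 probes tested 18.5% were called lower and 19% higher, and 3.47% were called with a change of 2-fold or more, as Apoa1 and Apoa4 were. The median log2 ratio was -0.32 over the 10 genes and 0.01 over all probes.

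Apoa4, a lipid-binding protein of chylomicrons and high density lipoprotein, gave array values of -4.03 and -2.06. Both arrays showed a large drop, but of unequal size. The fitted log2 ratio was -3.05 ± 0.62 (adjusted p = 0.00623). Without the first array the ratio was -1.87 with an adjusted p of 0.107, and the call was lost.

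Apoa1, which activates the cholesterol-esterifying enzyme of plasma, gave -3.32 and -2.16, again lower on both arrays and lowest on the first. Its log2 ratio was -2.74 ± 0.40 (adjusted p = 0.00123). Apoa5 gave -0.51 and -0.72, a log2 ratio of -0.61 ± 0.10 (adjusted p = 0.00202), or 1.53-fold lower. Apoa2 went the other way with 0.30 and 0.43 and a log2 ratio of 0.37 ± 0.09 (adjusted p = 0.0130). That call was lost without the second array (0.29, adjusted p = 0.120), without the dye term (adjusted p = 0.448) and when only the arrays of the comparison were fitted (adjusted p = 0.367). With each array centred on its median in place of loess, Apoa1 (-2.54), Apoa4 (-2.85), Apoa5 (-0.44) and Apoa2 (0.52) kept their direction, and none was called (adjusted p = 0.155, 0.227, 0.596 and 0.632). That setting also ended every call of the 10 genes described below.

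Among the 6 genes not called, Apoc3, an inhibitor of triglyceride clearance that lies between Apoa1 and Apoa4, had array values of -1.49 and 0.30. The arrays thus disagreed in sign, and the ratio was -0.60 ± 0.42 (adjusted p = 0.295). Its other probe gave -1.37 and 0.32. On the first array Apoa1, Apoa4 and Apoc3 all had their lower value, while Apoa5 and Apoa2 were close on both. Without the second array Apoc3 was called at -1.67 (adjusted p = 0.00852), and without the first it was 0.48 (adjusted p = 0.365). Apob had 0.12 ± 0.08, Apoh -0.11 ± 0.16 and Apom -0.08 ± 0.09.

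**Figure D1:**
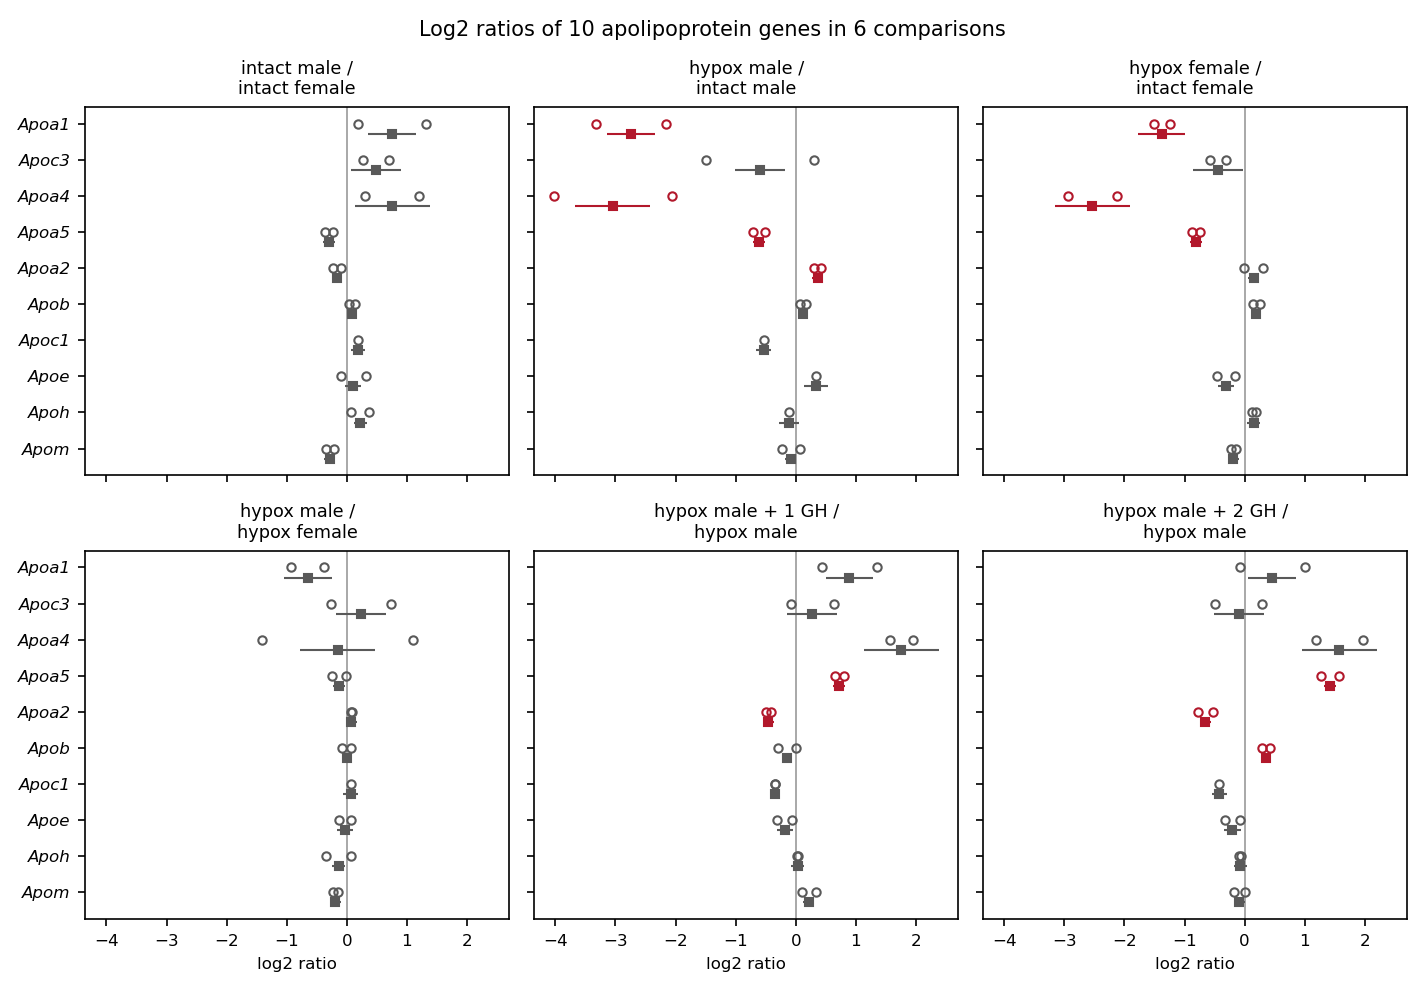
Log2 ratio (horizontal axis) of the 10 genes in the 6 comparisons. Open circles are single arrays with the fitted dye effect taken off, squares with bars are the fitted ratio ± SE (n = 2 arrays), and red marks an adjusted p under 0.05. Apoa1 and Apoa4 lie far below 0 after hypophysectomy (-2.74 and -3.05 in males), and Apoa5 is the one gene called in all 4 comparisons with a hypophysectomised RNA against an intact or a GH-treated one.

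The same question was asked in females. Apoa4, Apoa1 and Apoa5 were lower in hypophysectomised than in intact females, 3 of the 9 genes tested, and no gene was called higher. Apoc1 was not tested, because its only spot was marked outlying on both arrays. Of all 24320 probes tested 18.5% were called lower and 17.9% higher. The median log2 ratio was -0.31 over the 9 genes and 0.00 over all probes.

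Apoa4 gave -2.94 and -2.13, both far below 0, and a log2 ratio of -2.54 ± 0.62 (adjusted p = 0.0144), which is 5.80-fold lower. Apoa1 gave -1.51 and -1.25, and its ratio was -1.38 ± 0.40 (adjusted p = 0.0273). Either call was lost when the first or the second array was left out, with an adjusted p of 0.208 and 0.0740 for Apoa4 and 0.248 and 0.137 for Apoa1. Apoa5 gave -0.74 and -0.87 and a ratio of -0.81 ± 0.10 (adjusted p = 5.37e-04), a 1.75-fold drop that stayed called with either array left out. Apoa2, at 0.15 ± 0.09, and Apob, at 0.19 ± 0.08, were not called (adjusted p = 0.222 and 0.103).

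The intensities of the single RNAs show the same order. They come from the same arrays as the ratios and are no separate evidence. The share of all probes whose ranges do not overlap was not worked out. Apoa4 ranged from 15.93 to 16.73 (median 16.34) over the 4 arrays with intact male RNA, and from 11.18 to 13.97 (median 12.52) over the 8 arrays with hypophysectomised male RNA. In intact females it ranged from 15.31 to 16.14 (median 15.57) and in hypophysectomised females from 11.32 to 13.20 (median 12.88). Intact and hypophysectomised RNAs did not overlap in either sex, and the 2 hypophysectomised RNAs overlapped over most of their range.

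Apoa1 was separated in males, with 16.84 to 17.64 in intact and 14.01 to 15.83 in hypophysectomised males. Its female ranges overlapped, with 15.91 to 17.18 in intact and 15.29 to 16.05 in hypophysectomised females. For Apoa5 the ranges were 15.63 to 16.08 and 14.99 to 15.54 in males, and 15.99 to 16.35 and 15.17 to 15.61 in females, with no overlap within either sex. Apoa2 ranged from 16.71 to 17.08 in intact and from 17.04 to 17.39 in hypophysectomised males, and these ranges overlapped slightly.

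**Figure D2:**
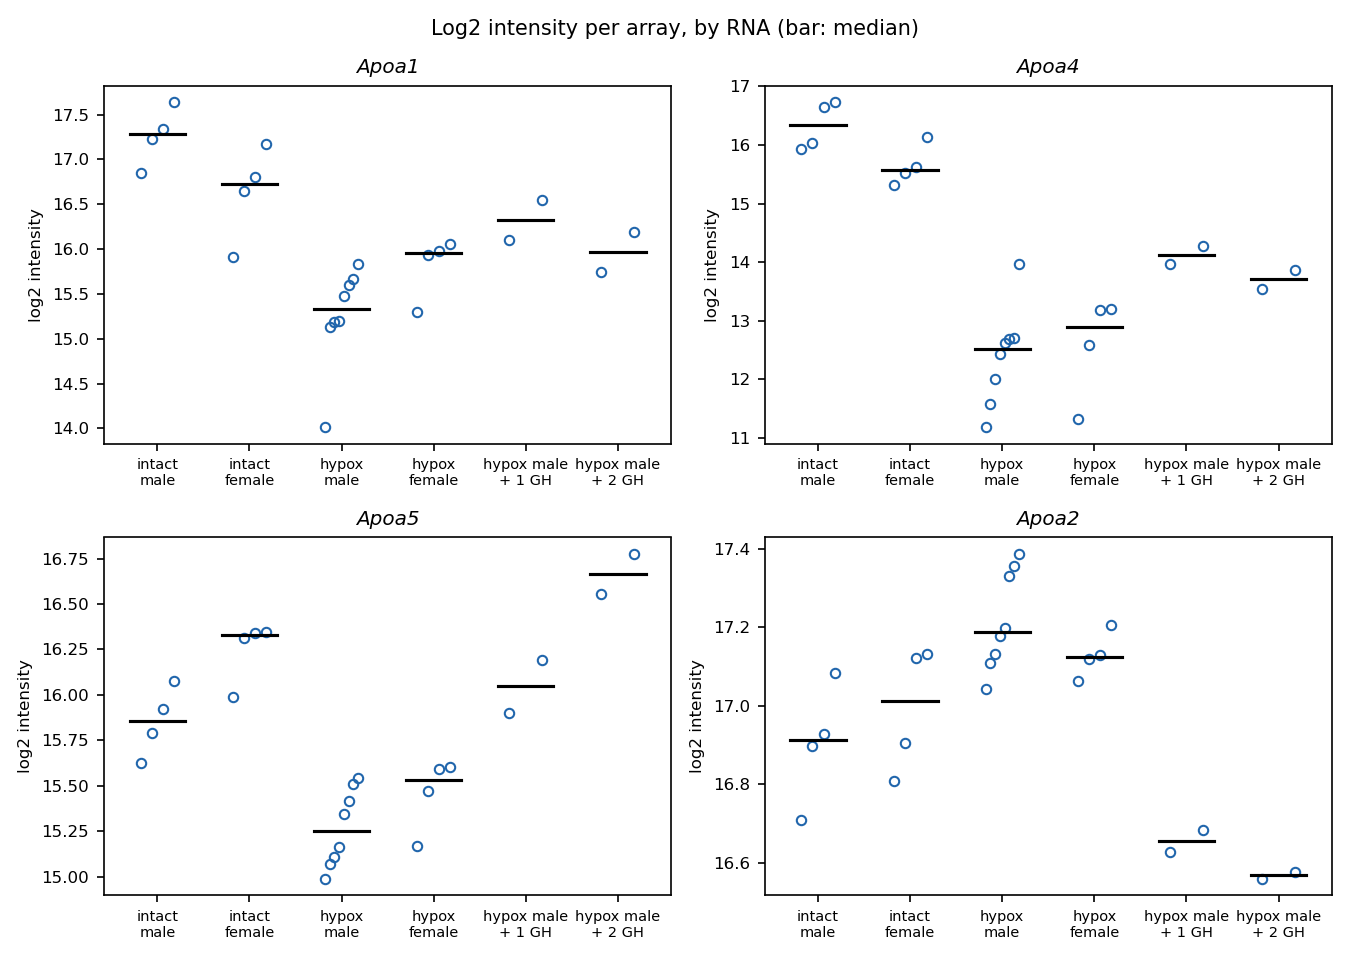
Log2 intensity (vertical axis) of Apoa1, Apoa4, Apoa5 and Apoa2 in each of the 6 RNAs, after normalization within and between arrays. Each circle is 1 array that held the RNA (2 to 8 arrays), and bars are medians. Apoa4 falls from a median of 16.34 to 12.52 in males and from 15.57 to 12.88 in females, and Apoa2 is lowest with 2 GH injections. GH and intact RNAs were never on the same slide.

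Markers of other cell types were checked beside these changes. After hypophysectomy of males 5 of 7 endothelial and 4 of 6 bile duct markers were higher and none lower, and in females 5 of 6 and 3 of 6 were higher and none lower. Of all probes tested 19% were called higher and 18.5% lower in males, and 17.9% and 18.5% in females. The mean log2 intensity of the bile duct list was at most 9.22 in intact and 9.97 to 10.07 in hypophysectomised males, and 9.19 to 9.31 and 9.71 to 9.96 in females. For the endothelial list it ranged from 9.83 to 10.03 and 10.09 to 10.33 in males, and from 9.99 to 10.13 and 10.35 to 10.36 in females. Of the hepatocyte markers, 2 of 7 were lower in males, Serpina1 (-1.20) and Ahsg (-1.04). In females none was lower and Fgb was higher (0.45 ± 0.11). The mean of that list ranged from 17.23 to 17.39 in intact males and from 16.52 to 17.10 in hypophysectomised males. The part of these shifts in the lower apolipoprotein levels was not tested, and in such pools fewer cells of a type and less RNA per cell cannot be told apart. The gut also makes Apoa4 and Apob. Of 7 gut markers on the array Vil1, Cdx1, Lct, Muc2 and Alpi were well above background in 0 of 24 readings, Cdx2 in 7 and Fabp2, a fatty acid binding protein, in all 24. Fabp2 was lower after hypophysectomy (-0.93 ± 0.13 in males, -1.71 ± 0.13 in females) and higher after 2 GH injections (0.41 ± 0.13), and its part in the Apoa4 and Apob values was not tested. Of the pancreas and fat markers, Cpb1 (1.54 ± 0.41) was higher in males among 3 tested, and Cela1 (1.18 ± 0.20) was higher and Cpa1 (-4.15 ± 0.80) lower in females among 6 tested.

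None of the 10 genes was called between intact males and intact females, the comparison for sex differences. By limma 0 of 10 genes passed the threshold, and 2 had an unadjusted p under 0.05, as had 7251 of 25714 probes tested. Of all these probes 8.07% were called higher and 7.42% lower in males. Apoa5 was -0.24 and -0.36 on the arrays (-0.30 ± 0.10, adjusted p = 0.0792) and Apom, a high density lipoprotein protein that carries sphingosine-1-phosphate, was -0.35 and -0.22 (-0.29 ± 0.09, adjusted p = 0.0743). Both values lay below 0 on both arrays, and both genes were called when the 6 RNAs rather than the 6 comparisons were fitted (adjusted p = 0.0199 and 0.0189).

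Apoa1 gave 1.32 and 0.19 in intact males over intact females, a ratio of 0.76 ± 0.40 (adjusted p = 0.264), and Apoa4 gave 1.21 and 0.31, a ratio of 0.76 ± 0.62 (adjusted p = 0.494). Both pairs lay above 0 but were far apart. Before the dye effect was taken off, Apoa4 read 0.86 and 0.65, and Apoa1 1.57 and -0.05. The gap for Apoa4 thus came with its dye coefficient of -0.34, which was not called by limma (adjusted p = 0.403). On these arrays alone Apoa4 was called, as given below. The other 6 genes lay between -0.16 and 0.48. Between hypophysectomised males and females 0 of 10 genes were called by limma, where 0.53% and 0.419% of 26038 probes were called higher and lower. An unadjusted p under 0.05 was found for 0 of the 10 genes and for 3561 of these probes. Apoa4 had array values of -1.41 and 1.10 there, of opposite sign.

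Whether the sexes respond alike was tested as the difference between the male and the female change. The value averages the male minus the female hypophysectomy ratio with the hypophysectomised minus the intact sex ratio. All arrays without GH thus enter it. No gene of 9 was called by limma, while 6.48% and 7.01% of 23859 probes were. An unadjusted p under 0.05 was found for 3 of the 9 genes and for 6529 of these probes. For Apoa1 the male drop was larger by a log2 difference of -1.38 ± 0.40 (adjusted p = 0.0564). That difference passed the threshold when the 6 RNAs were fitted (adjusted p = 0.0323). It also passed without the second array of hypophysectomised against intact males and without the second array of intact males against females. It did not pass without the first array of either comparison. Apoh had -0.31 ± 0.12 (adjusted p = 0.158), and -0.47 (adjusted p = 0.0243) without the second array of hypophysectomised males against females. Apoa4 differed by -0.71 ± 0.62 (adjusted p = 0.524) and Apoa5 by 0.18 ± 0.10 (adjusted p = 0.272).

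The 2 GH comparisons ask which transcripts respond to the hormone in males without a pituitary. They share the hypophysectomised male RNA with each other and with the comparisons above, so their values are given side by side and not correlated. After 1 injection Apoa5 was higher and Apoa2 lower, 1 gene each way of 10, where 7.49% and 6.79% of 26359 probes were called. After 2 injections Apoa5 and Apob were higher and Apoa2 was lower, where 15% and 15.8% of 28438 probes were called. The median log2 ratio of the 10 genes was 0.12 and -0.08, and that of all probes 0.00 and -0.01.

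Apoa5 gave 0.65 and 0.80 after 1 injection, a log2 ratio of 0.72 ± 0.10 (adjusted p = 0.00280). With 2 injections it gave 1.27 and 1.57, a ratio of 1.42 ± 0.10 (adjusted p = 2.86e-05), or 2.67-fold. All 4 values lay well above 0. The difference between the treatments was 0.70 ± 0.14 (adjusted p = 0.0184), where 5.56% and 4.82% of 26208 probes were called higher and lower. Of the 10 genes 2 were called in this difference, Apoa5 and Apob. The intensity of Apoa5 was 15.90 and 16.19 after 1 injection and 16.56 and 16.78 after 2 injections. The latter values lay above all 4 intact male values (15.63 to 16.08). GH and intact RNAs were never on the same array or slide, so slide and treatment cannot be told apart in such intensities. The same limit holds wherever GH and intact intensities are set side by side below. The call after 2 injections was lost in 1 alternative, median centring. The call after 1 injection was lost without its second array (adjusted p = 0.0941) and on its own arrays alone (0.0648), and that of the difference without either array of 1 injection (0.157 and 0.0769) or without the second of 2 injections (0.128), and also without the dye term (0.107) and on the GH arrays alone (0.259).

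Apoa2, the second protein of high density lipoprotein, moved opposite to Apoa5. It gave -0.42 and -0.50 after 1 injection (-0.46 ± 0.09, adjusted p = 0.0123) and -0.53 and -0.77 after 2 injections (-0.65 ± 0.09, adjusted p = 7.81e-04), or 1.57-fold lower. All 4 array values lay below 0. Its intensities of 16.56 to 16.68 with GH lay below all those in intact males (16.71 to 17.08), which were on other slides. The treatments did not differ beyond their error (-0.20 ± 0.12, adjusted p = 0.394). Either call was lost without the dye term (adjusted p = 0.481 and 0.208) and on the arrays of its comparison alone (0.276 and 0.0834), and the first also without either of its arrays (0.129 and 0.197).

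Apob gave 0.42 and 0.29 after 2 injections, a log2 ratio of 0.35 ± 0.08 (adjusted p = 0.0126), and 0.01 and -0.29 after 1 injection (-0.14 ± 0.08, adjusted p = 0.305). Both arrays of 2 injections were above 0, while those of 1 injection lay at and below it. The difference between the treatments was 0.49 ± 0.12 (adjusted p = 0.0347). The call of that difference was lost without the second array of 1 injection (0.31, adjusted p = 0.205), without either array of 2 injections (0.227 and 0.0973), without the dye term (0.909), on the GH arrays alone (0.834) and over the mean of the 5 probes (0.303). Its second brightest probe gave 0.37 ± 0.08 after 2 injections (adjusted p = 0.0103), and the difference of 0.37 ± 0.12 on that probe missed the threshold (adjusted p = 0.0910). On the 3 dimmer probes the ratio after 2 injections was 0.08 to 0.13 with SEs of 0.27 to 0.35, and none was called. The mean over the 5 probes was 0.21 (adjusted p = 0.472). The call was lost without either array (adjusted p = 0.231 and 0.0610), and without the dye term the SE was 0.83 (adjusted p = 0.864). Under median centring the ratio was -0.25 ± 0.36.

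**Figure D3:**
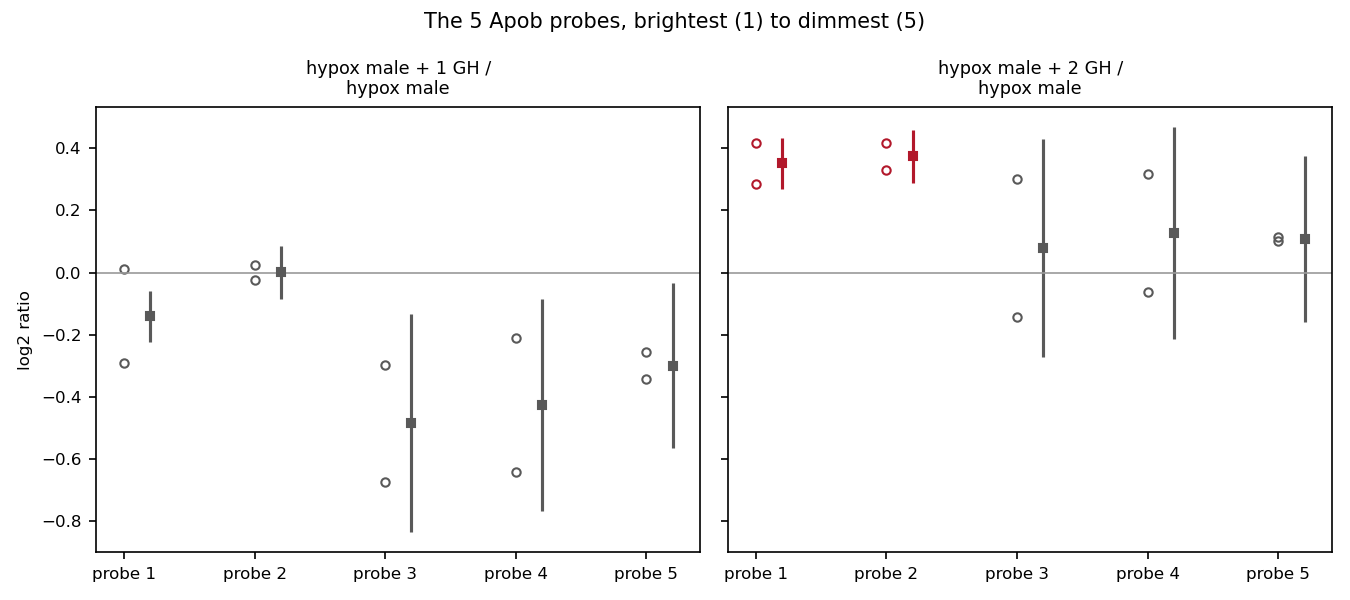
Log2 ratio (vertical axis) of the 5 Apob probes, brightest at left, after 1 (left panel) and 2 GH injections (right panel). Circles are the 2 arrays with the dye effect taken off, squares with bars the fitted ratio ± SE, and red marks an adjusted p under 0.05. The 2 brightest probes agree at 0.35 and 0.37 after 2 injections, and the 3 dimmer ones have SEs of 0.27 to 0.35.

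Apoa4 had positive values on all GH arrays without being called. It gave 1.95 and 1.57 after 1 injection (1.76 ± 0.62, adjusted p = 0.101) and 1.97 and 1.18 after 2 injections (1.58 ± 0.62, adjusted p = 0.0954). Its SE comes from all 12 arrays, among them the hypophysectomised male and female pair that disagreed in sign. On the arrays of 1 injection alone the ratio had an adjusted p of 0.0427. The intensities of 13.54 to 14.28 with GH lay below all intact male values (15.93 to 16.73), which were on other slides. Apoa1 gave 1.35 and 0.43 after 1 injection (0.89 ± 0.40, adjusted p = 0.180) and 1.00 and -0.08 after 2 injections (0.46 ± 0.40, adjusted p = 0.472). Its intensities of 15.75 to 16.55 also lay below those of intact males, with the same limit.

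The remaining genes were not called with GH, and their SEs reached 0.42. Apoc3 had 0.28 ± 0.42 and -0.10 ± 0.42 after 1 and 2 injections, its arrays differing in sign each time. Apom had 0.22 ± 0.09 and -0.09 ± 0.09. Apoh, a plasma protein that binds phospholipid (beta-2-glycoprotein I), had 0.03 ± 0.11 and -0.08 ± 0.11. Apoe, the ligand of the low density lipoprotein receptor family, had -0.19 ± 0.13 and -0.20 ± 0.13. Apoc1 had -0.35 and -0.42, the second from 1 array. Its usable arrays only sufficed to fit the ratios and the dye, so its SEs rest on the spread of other probes and are left out. With outlying spots kept it had -0.35 ± 0.18 and -0.40 ± 0.18. None of these 5 genes was called in any of the 6 comparisons, and Apoc1 was tested in 5.

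Macrophages also make Apoe and Apoc1. Of 11 macrophage markers 7 were higher and 1 lower after 1 injection, where 7.49% and 6.79% of all probes were. None was called after 2 injections (15% and 15.8% of all probes). In intact males against females 1 was higher and 8 were lower (8.07% and 7.42%). In hypophysectomised males against females 0 were higher and 4 lower (0.53% and 0.419%). For 2 against 1 injections 0 were higher and 4 lower (5.56% and 4.82%). The mean log2 intensity of the list was 11.95 to 12.01 in intact males, 12.15 to 12.24 in intact females and 11.96 to 12.13 in hypophysectomised males. It was 12.25 to 12.34 in hypophysectomised females, 12.27 to 12.34 with 1 injection and 12.11 to 12.14 with 2 injections. Apoe was not called in any of these comparisons, and the part of the macrophage shift in its values was not tested. Of 7 stellate cell markers 3 were higher and 1 lower after hypophysectomy of males and 1 lower in females, and of 8 lymphocyte markers 3 were higher and 1 lower in each sex. The shares of all probes there were 19% higher and 18.5% lower in males, and 17.9% and 18.5% in females.

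For several genes the dye moved the readings more than the treatment did. The dye coefficient, the log2 shift that a ratio takes from its dye orientation on 1 array, was 1.01 for Apob, 0.87 for Apoc3, 0.84 for Apoh, 0.64 for Apoe, 0.61 for Apoc1 and 0.39 for Apoa2. It passed the threshold for these 6 genes, and was 0.25, -0.34, 0.14 and 0.10 for Apoa1, Apoa4, Apoa5 and Apom, where it did not. Over the whole array it passed for 3605 probes, beside 29008 probes tested in any comparison. For Apoc1 the error behind its dye call came from the spread of other probes alone. Before it was taken off, Apob read -0.94 and 1.17 on the arrays of hypophysectomised against intact males. Most of these spots are very bright, and for 8 of the 10 genes at least 23 of 24 readings were taken from a scan at low gain and scaled up (Apoa4 11 and Apom 18 of 24). Whether this bears on the ratios was not tested.

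Outlying spots took values from 3 genes. Apoc1 lost 6 of 12 arrays, and Apoe and Apoh lost the first array of hypophysectomised against intact males. Keeping those spots was an alternative chosen after seeing the data. With them Apoc1 in that comparison changed from -0.53 on 1 array to -0.03 ± 0.18 on 2 arrays, and Apoe from 0.34 ± 0.20 to -0.16 ± 0.21. Ratios around the loop of the 4 RNAs without GH should sum to 0. The sum was within 1 SE of 0 for 8 of the 9 genes with a value. Apoe gave 0.80 ± 0.31, against a median size of 0.06 over 23859 probes, and 0.29 ± 0.41 with the spot kept.

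Over the 12 arrays, Apoa1 and Apoa4 had the most similar ratios of any pair of the 10 genes (Pearson r = 0.93), Apoa4 and Apoa5 had r = 0.76, and Apoa2 and Apoa5 had r = -0.92. The arrays share RNAs and slides, so these values only describe them. Among 10422 genes tested throughout, the one nearest to Apoa5 was Chp1 (r = 0.99). Chp1 had log2 ratios of -0.62 and -0.74 after hypophysectomy of males and females and 0.73 and 1.61 after 1 and 2 injections. Nearest to Apoa4 were Gckr (0.99), which inhibits glucokinase, Ints3 (0.99) and the sulfate transporter Slc26a1 (0.98). Nearest to Apoa1 were Ppia (0.98), Por (0.98), which feeds electrons to cytochromes P450, and Dnaja4 (0.97). After hypophysectomy of males the 6 genes nearest to Apoa4 and Apoa1 changed by -0.32 to -1.77, less than either apolipoprotein.

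**Figure D4:**
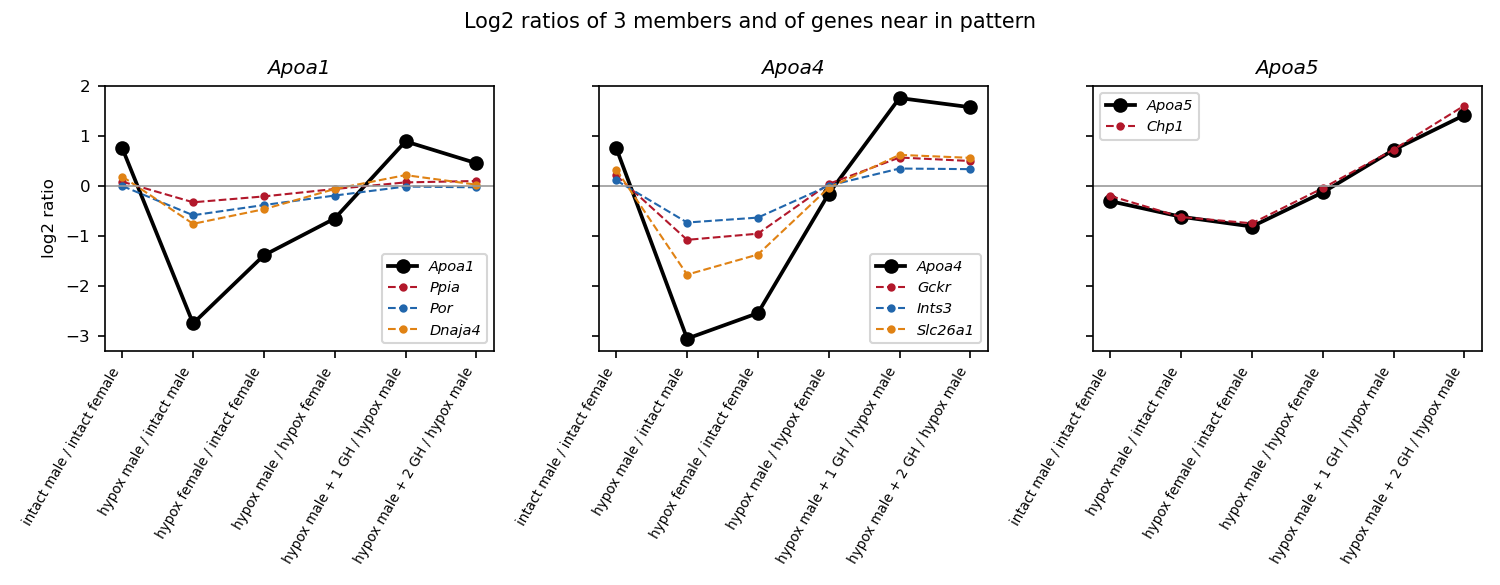
Fitted log2 ratio (vertical axis) in the 6 comparisons (horizontal axis) for Apoa1, Apoa4 and Apoa5 (black) and for genes with the most similar ratios over 12 arrays (dashed), 3 each for Apoa1 and Apoa4 and 1 for Apoa5. Chp1 reaches 1.61 and Apoa5 1.42 after 2 GH injections.

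Other genes with an apolipoprotein name were counted beside the 10. Of 11 listed, 8 were on the array and 7 or 8 were tested. Of these 3 were higher and 0 lower after hypophysectomy of males (median log2 ratio 0.10), 2 higher and 1 lower in females (0.00), and 1 higher and 3 lower after 2 injections (-0.17), where the median of all probes was 0.01, 0.00 and -0.01. Of all probes 19%, 17.9% and 15% were called higher there, and 18.5%, 18.5% and 15.8% lower. The counts include Apobr, a receptor, and Apoo and Apool, proteins of the mitochondrial inner membrane. Apool was among the genes higher in males (0.17 ± 0.05), and Apoo was the 1 lower in females (-0.50 ± 0.08). Both were among those lower after 2 injections (Apool -0.42 ± 0.05, Apoo -0.27 ± 0.08). Apon, whose gene is named for the family, was higher in intact males than females (1.42 ± 0.15), higher after hypophysectomy (0.56 ± 0.15 in males, 1.77 ± 0.15 in females) and lower with GH (-0.92 ± 0.15 and -0.90 ± 0.15). Its sex dependence was called (-1.21 ± 0.15, adjusted p = 0.00171). Clu (apolipoprotein J) was higher in intact males than females (0.53 ± 0.09). It was also higher after hypophysectomy in both sexes (0.31 ± 0.09 and 0.84 ± 0.09) and after 2 injections (0.68 ± 0.09). Saa4, a serum amyloid A protein of high density lipoprotein kept here in the list of lipases and plasma remodelling, was lower after hypophysectomy (-1.95 ± 0.24 and -1.08 ± 0.24) and higher with 1 and 2 injections (1.59 ± 0.24 and 2.38 ± 0.24).

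Of 12 genes listed under lipoprotein assembly and RNA editing, 3 were lower and 1 higher after hypophysectomy of males. In females 5 were lower and 0 higher, and after 2 injections 5 were lower and 0 higher. Their median log2 ratio was -0.20, -0.24 and -0.30, against 0.01, 0.00 and -0.01 over all probes. Of all probes 19%, 17.9% and 15% were called higher in these comparisons, and 18.5%, 18.5% and 15.8% lower. These shares and medians also stand beside the lists below. Acat2, counted among the lower genes each time (-0.43 ± 0.11, -0.93 ± 0.11 and -0.42 ± 0.11), is an enzyme of cholesterol synthesis and not of lipoprotein assembly. In females Dgat2, which completes triglyceride synthesis, had the largest change of the list (-1.36 ± 0.26). Mttp, which loads lipid onto Apob, was -0.46 ± 0.07 and -1.06 ± 0.07 after hypophysectomy and -0.32 ± 0.07 after 2 injections, and Apobec1, which edits Apob RNA, was -0.77 ± 0.09, -0.78 ± 0.09 and -0.35 ± 0.09. Of 11 receptors and uptake genes 2 were higher and 3 lower in males, 2 higher and 5 lower in females, and 2 higher and 6 lower after 2 injections, with medians of 0.01, -0.15 and -0.19. The sorting receptor Sorl1 was higher after hypophysectomy of males (0.44 ± 0.14) and of females (1.90 ± 0.14). The high density lipoprotein receptor Scarb1 was higher after hypophysectomy (0.44 ± 0.09 and 0.54 ± 0.09). Of 10 lipases and remodelling genes 2 were higher and 4 lower in males, and 2 higher and 6 lower in females (medians -0.28 and -0.49). Of 11 of them 1 was higher and 5 lower after 2 injections (median -0.22). Lcat, the enzyme that Apoa1 activates, had a log2 ratio of -0.64 ± 0.08 after hypophysectomy in each sex.

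Of 7 or 8 sterol and phospholipid exporters tested, 1 was higher and 4 lower in males, 1 higher and 5 lower in females, and 2 higher and 2 lower after 2 injections, with medians of -0.22, -0.31 and 0.11. The sterol transporter subunit Abcg5 was -1.90 ± 0.46 and -2.24 ± 0.46 after hypophysectomy. Of 22 listed transcription factors and coregulators 6 were higher and 4 lower in males, and 7 higher and 4 lower in females. After 2 injections 2 were higher and 8 lower, and the medians of the 3 comparisons were 0.18, 0.08 and -0.16. For both lists the shares of all probes were again 19%, 17.9% and 15% higher, and 18.5%, 18.5% and 15.8% lower. Thrb, a thyroid hormone receptor, was higher after hypophysectomy (1.42 ± 0.25 and 0.86 ± 0.25). Hnf4a, a nuclear receptor that drives many apolipoprotein genes, was higher after hypophysectomy (0.68 ± 0.16 and 0.63 ± 0.16), and Mlxipl, a glucose-responsive factor, was lower (-1.46 ± 0.15 and -1.44 ± 0.15). Nr0b2, a repressor of nuclear receptors, was lower after 1 and 2 injections (-2.36 ± 0.37 and -3.36 ± 0.37).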

How the data were processed

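Liver RNA pools were compared on 12 Agilent rat arrays of 45018 spots, 1639 of them controls. Per the file headers, the authors deposited Feature Extraction 9.1.3.1 output: mean and background pixel intensity in each colour, flags, and log10 ratios of red over green that were background-subtracted and dye-normalized. The deposited value table holds log2 ratios. They lie within 0.01 of the scanner log ratios on the same scale for all 15 apolipoprotein spots of every array, and for 45.1 to 81.1% of dim spots. No genome build is named.

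Intensities were background-corrected here (normexp, offset 50), normalized by loess within arrays and Aquantile between arrays, with outlying spots left out, and averaged per probe. To enter the test of a comparison, a probe needed both readings of the first or of the second RNA well above background (in at least a 0.5 share of its spots). One limma fit (limma 3.58.1, R 4.3.3) held 6 comparisons and a dye term, with 5 residual and 3.08 prior degrees of freedom, and p-values were adjusted by Benjamini-Hochberg over all probes tested. Between 58.4% and 71.1% of spots per array and colour were well above background, and having 2 arrays a comparison limits precision. The label of 1 array with 1 GH injection leaves out the hormone in its channel, and the title was used. The GH arrays shared 1 slide, and replicates 1 and 2 of the other comparisons lay on a slide each. Steps were tested on simulated data. The alternatives were other background, centring, dye, filter, probe and model settings and each array left out. The members and gene lists were chosen with earlier results of these data known. Named are the 10 members, the 3 genes nearest in pattern to each of the 3 called members with the largest ratios (for Apoa5 the nearest alone, the others not being reported here), and some of the up to 4 called genes per list and comparison with the largest ratios and 1 direction on both arrays.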

Additional observations from a re-analysis of the deposited data

Results flagged for a closer look

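In 4 of the 35 sets of arrays with 4 to 8 readings of 1 gene in 1 RNA, a single array stood apart from the others by Dixon's criterion, where chance gives about 1 in 20. Apoa1 in hypophysectomised males was lowest at a log2 intensity of 14.01 on the first array against intact males, and the other 7 arrays lay between 15.13 and 15.83. In hypophysectomised females Apoa1 was lowest at 15.29 on the first array against intact females, with the others between 15.93 and 16.05. Apoa5 in intact females was lowest at 15.99 on the second array of males against females, with the others between 16.31 and 16.35. Apoc3 in intact males was lowest at 17.18 on the second array of hypophysectomised against intact males, with the others between 17.64 and 17.67.

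The effect of GH differed between 1 and 2 injections by the test of the difference itself for Apoa5 (0.70 ± 0.14, adjusted p = 0.0184) and Apob (0.49 ± 0.12, adjusted p = 0.0347), each higher with 2 injections on the log2 scale. The call of the Apob difference was lost without the second array of 1 injection, without either array of 2 injections, without the dye term, on the GH arrays alone, over the mean of its probes and under median centring. The call of the Apoa5 difference was lost without either array of 1 injection, without the second of 2 injections, without the dye term, on the GH arrays alone and under median centring. Each treatment was 1 pool of livers, so pool and treatment cannot be told apart, and the labels used here give no time from the second injection to collection.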

How the results depend on the processing

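Values are the number of the 10 genes called, with the reported number being 4 and 3 after hypophysectomy of males and females, 2 and 3 after 1 and 2 GH injections, 2 for the difference between them, and 0 elsewhere. Median centring in place of loess left 0 in these 5 comparisons, and it turned Apob after 2 injections to -0.25. Across all probes it left 345 calls after hypophysectomy of males, against 9737. Without the dye term 1, 1 and 0 were called for the GH comparisons and their difference. With only the arrays of a comparison fitted, 1 was called between intact males and females (Apoa4, adjusted p = 0.00136), 1 after 2 injections and 0 for the GH difference. With 1 coefficient per RNA, 2 were called between intact sexes and 1 in the sex dependence, and the mean over probes left 1 in the GH difference. With 1 array left out, the range was 1 to 1 after hypophysectomy of females, 0 to 1 after 1 injection, 0 to 1 for the GH difference and 0 to 1 for the sex dependence. The causes were not tested. Over all probes and settings the lowest and highest counts of calls were 261 and 6349 between intact sexes, 345 and 12679 after hypophysectomy of males, 370 and 11392 of females, 6 and 1008 between hypophysectomised sexes, 0 and 4887 after 1 injection, 75 and 10270 after 2 injections, 118 and 4123 for the sex dependence and 0 and 4170 for the GH difference.

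With the replicate number as a replicate block the counts were 0, 4, 3, 0, 2, 3, 0 and 2, as reported. Arrays of the same number deviated together in some pairs of comparisons and oppositely in others (correlations from -0.67 to 0.84), so the numbers were not taken to pair the samples. With slide as a random block the correlation was 0.0137. Keeping outlying spots was chosen after seeing the data. Of all alternative values 1114 kept direction and side of the threshold, 45 fell below it, 14 rose above it, 61 uncalled values moved and 1 reversed. With 2 arrays a comparison, differences between members that were not called may still exist.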
